A study of Mus musculus with 4 samples.

Results

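Glutamate and GABA receptor genes were taken by symbol from the gene list of the deposited matrices: every Gria, Grik, Grid, Grin and Grm gene, every GABA-A receptor gene and both GABA-B receptor genes. The rule found 47 members among 32285 genes, namely 18 ionotropic glutamate, 8 metabotropic glutamate, 19 GABA-A and 2 GABA-B receptor genes. It uses names only, so no measured value chose a member.

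Ionotropic glutamate receptors are cation channels built from subunits of one family, and they carry fast excitatory transmission in the cortex. AMPA receptors (Gria genes) open fastest, kainate receptors (Grik genes) also act at presynaptic sites, and NMDA receptors pair the obligatory subunit of Grin1 with glutamate-binding Grin2 or glycine-binding Grin3 subunits. The delta receptors (Grid genes) resemble these channels but work as synaptic organisers that bind cerebellins. Metabotropic glutamate receptors signal through G proteins: group I (such as Grm5) drives phospholipase C, while group II (Grm2, Grm3) and group III (Grm4, Grm6, Grm7, Grm8) lower cyclic AMP and sit largely on terminals. GABA-A receptors are chloride channels, most often of alpha, beta and gamma subunits, and GABA-B receptors are obligate pairs of Gabbr1 and Gabbr2 proteins that act through G proteins.

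The nuclei came from the cortex of 5-month-old C57BL/6 mice, 2 wildtype and 2 Setdb1-CK-cKO animals, each giving 1 droplet library of 3′ tags. The protein of Setdb1 methylates lysine 9 of histone H3. The labels name the knockout as Setdb1-CK-cKO and explain neither CK nor the promoter that drives the deletion, so which cells lost the gene is not known here, and Setdb1 RNA does not check it, since 3′ tags can come from outside a deleted part (71.5 and 67.1 CPM in wildtype, 72.2 and 67.5 CPM in knockout excitatory-like nuclei). CPM is the usual scaling of UMIs, the counted RNA molecules, to the total UMIs of the class or subclass in a library.

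The libraries held 11790 to 14493 barcodes and 38314394 to 45605971 UMIs, and 52038 nuclei were kept. Any pair of libraries shared 48 to 64 barcode sequences. The 2 libraries of a genotype differed beyond sampling noise (chi-square per degree of freedom 10.1 for wildtype and 12.8 for knockout), so none was counted as a copy. Each genotype is labelled with 1 male and 1 female animal. In excitatory-like nuclei Xist, which is transcribed from an inactive X, stood at 1.73 CPM (replicate 1) and 1025 CPM (replicate 2) for wildtype. For knockout it stood at 1.03 CPM (replicate 1) and 1434 CPM (replicate 2). This goes with the labels in wildtype and against them in both knockout libraries. The library labelled knockout replicate 1 thus has the male pattern and the library labelled knockout replicate 2 the female one. Either way each genotype holds 1 animal of each sex, and by Xist replicate 1 is male and replicate 2 female in both genotypes.

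Nuclei were clustered without the receptor genes, and clusters were named from marker genes, as X-like. Excitatory-like nuclei, 5819 to 7294 per library, fell in 12 subclasses. Of these 8 carried a layer or projection name: intratelencephalic (IT) in L2/3, L4/5 and L5, extratelencephalic (ET) in L5, near-projecting (NP) in L5/6, corticothalamic (CT) in L6, L6b, and claustrum or L6 Car3. The other 4 had no leading marker list and are called by a leading gene, as the Ntf3, Ndst4, Tnxb and Plch1 clusters. The inhibitory-like class, 945 to 1290 nuclei per library, holds cortical interneurons, with Pvalb-, Sst-, Vip- and Lamp5 or Sncg-like subclasses. A striatal projection-like subclass and a Zfhx3 cluster came from another cluster outside that class. Both are counted among the 6 inhibitory-like subclasses below. The Zfhx3 cluster had no leading marker list, and the class lists scoring highest in it did not include the inhibitory one. It held 78 and 60 wildtype and 96 and 298 knockout nuclei. Gad1, the GABA-synthesising enzyme, measured 11.6 and 13.5 CPM in wildtype and 14.4 and 9.64 CPM in knockout excitatory-like nuclei, against 242, 210, 226 and 169 CPM in inhibitory-like nuclei. Slc17a7, the vesicular glutamate transporter, measured 236 to 278 CPM in excitatory-like nuclei and still 114 to 159 CPM in inhibitory-like ones, so RNA of other cells was counted in inhibitory-like nuclei. Marker sums of other cell types in excitatory-like nuclei also separated by genotype: the 6 oligodendrocyte precursor markers summed to 274 and 292 CPM in wildtype and 418 and 416 CPM in knockout, the 8 microglia markers to 119 and 134 CPM against 149 and 164 CPM, and the 7 oligodendrocyte markers to 191 and 203 CPM against 177 and 175 CPM, with no marker at 0. Their part in the results on excitatory-like neurons was not tested.

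Most members were not evenly spread over the cell types of wildtype cortex, and the levels are given here as a description. Because tags come from the 3′ end and may come from pre-mRNA, levels are compared between cell types for 1 gene and never between genes. Among AMPA subunits Gria1 was highest in Sst-like interneurons, at 3090 and 3547 CPM in the 2 wildtype libraries, and lowest among neurons in the Plch1 cluster with a mean of 239 CPM. Gria4 was highest in claustrum or L6 Car3-like nuclei (1939 and 2032 CPM) and lowest in L5 ET-like nuclei (mean 361 CPM). Gria3 had the opposite order at L5 ET, where it was highest with 1526 and 1525 CPM. Gria2, the subunit that makes AMPA channels impermeable to calcium, varied least of these, with means of 1350 to 2016 CPM over the excitatory-like and 1154 to 1691 CPM over the inhibitory-like subclasses.

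Among kainate and delta subunits, Grik1 measured 1236 and 1146 CPM in Sst-like and 1128 and 1019 CPM in Lamp5 or Sncg-like interneurons, which do not overlap. Among excitatory-like subclasses it was highest in L5/6 NP-like nuclei (774 and 812 CPM) and lowest in L6 CT-like nuclei (mean 18 CPM), a 44.0-fold range. Grik2 was highest in Lamp5 or Sncg-like interneurons (1985 and 1904 CPM). Grid1 was highest in claustrum or L6 Car3-like nuclei (766 and 801 CPM), above striatal projection-like nuclei next in order (669 and 732 CPM).

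Among NMDA subunits, Grin1 had the narrowest range over excitatory-like subclasses (1.36-fold) of the members reaching 10 CPM there, at means of 417 to 565 CPM over the excitatory-like and 384 to 518 CPM over the inhibitory-like subclasses. Grin2a was highest in Lamp5 or Sncg-like interneurons (2435 and 2388 CPM) and lowest among neurons in Vip-like ones (mean 701 CPM). Grin2b was highest in the Ntf3 cluster (2785 and 2692 CPM). Grin2c was highest in astrocyte-like nuclei among the 22 cell types compared, with 303 and 246 CPM there and 5.99 and 8.06 CPM in microglia-like nuclei, the next in order. Grin3a was highest in Sst-like interneurons (773 and 754 CPM) and next in oligodendrocyte precursor-like nuclei (302 and 291 CPM). Inhibitory-like nuclei were clustered again together with nuclei from outside that class. There Grin3a stood among the 10 leading genes of an Sst-like group. Grin2c was the first leading gene of another group of 139 nuclei, 32 and 14 from wildtype and 91 and 2 from knockout libraries. The level of Grin2c in that group was not compared with the 22 cell types.

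Metabotropic receptors divided neurons and glia. Grm3 was highest in oligodendrocyte-like nuclei (877 and 784 CPM) and astrocyte-like nuclei (768 and 765 CPM), ahead of L5 IT-like neurons (539 and 483 CPM). Grm5 was highest in striatal projection-like nuclei (2263 and 2378 CPM) and Grm7 in the Plch1 cluster (2637 and 2740 CPM), where its range overlapped no other. Grm2 stayed low, with 22.8 and 18.3 CPM in the Plch1 cluster as its highest level. Grm8 was highest in L5/6 NP-like neurons (978 and 951 CPM) and among interneurons in Vip-like ones (814 and 686 CPM).

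GABA-A subunits split by cell type as well. Gabra2 was highest in the Ntf3 cluster (427 and 469 CPM) and Gabra5 in the Plch1 cluster (137 and 165 CPM). Gabrb2 was highest in Lamp5 or Sncg-like interneurons (626 and 563 CPM). Gabrd, a subunit of extrasynaptic receptors, measured 98.4 and 69.9 CPM in striatal projection-like and 72.4 and 72.6 CPM in Pvalb-like nuclei, which overlap. Gabrg1 was highest in astrocyte-like nuclei (58.5 and 52.2 CPM), as was Gabbr1 (246 and 265 CPM), though it overlapped oligodendrocyte-like nuclei (225 and 272 CPM). Gabbr2 was highest in Lamp5 or Sncg-like interneurons (680 and 811 CPM), where it overlapped claustrum or L6 Car3-like nuclei (683 and 672 CPM). Gabrr2 measured 84.9 and 87.3 CPM in oligodendrocyte-like nuclei and at most 7.98 CPM in any wildtype library of the other 21 cell types. Gabra6, a subunit best known from cerebellar granule cells, had 0 UMIs in the wildtype inhibitory-like libraries and at most 0.133 CPM in a wildtype excitatory-like one. Its highest level, 0.985 and 1.11 CPM in the Tnxb cluster, rested on 1 UMI in each wildtype library.

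**Figure D1:**
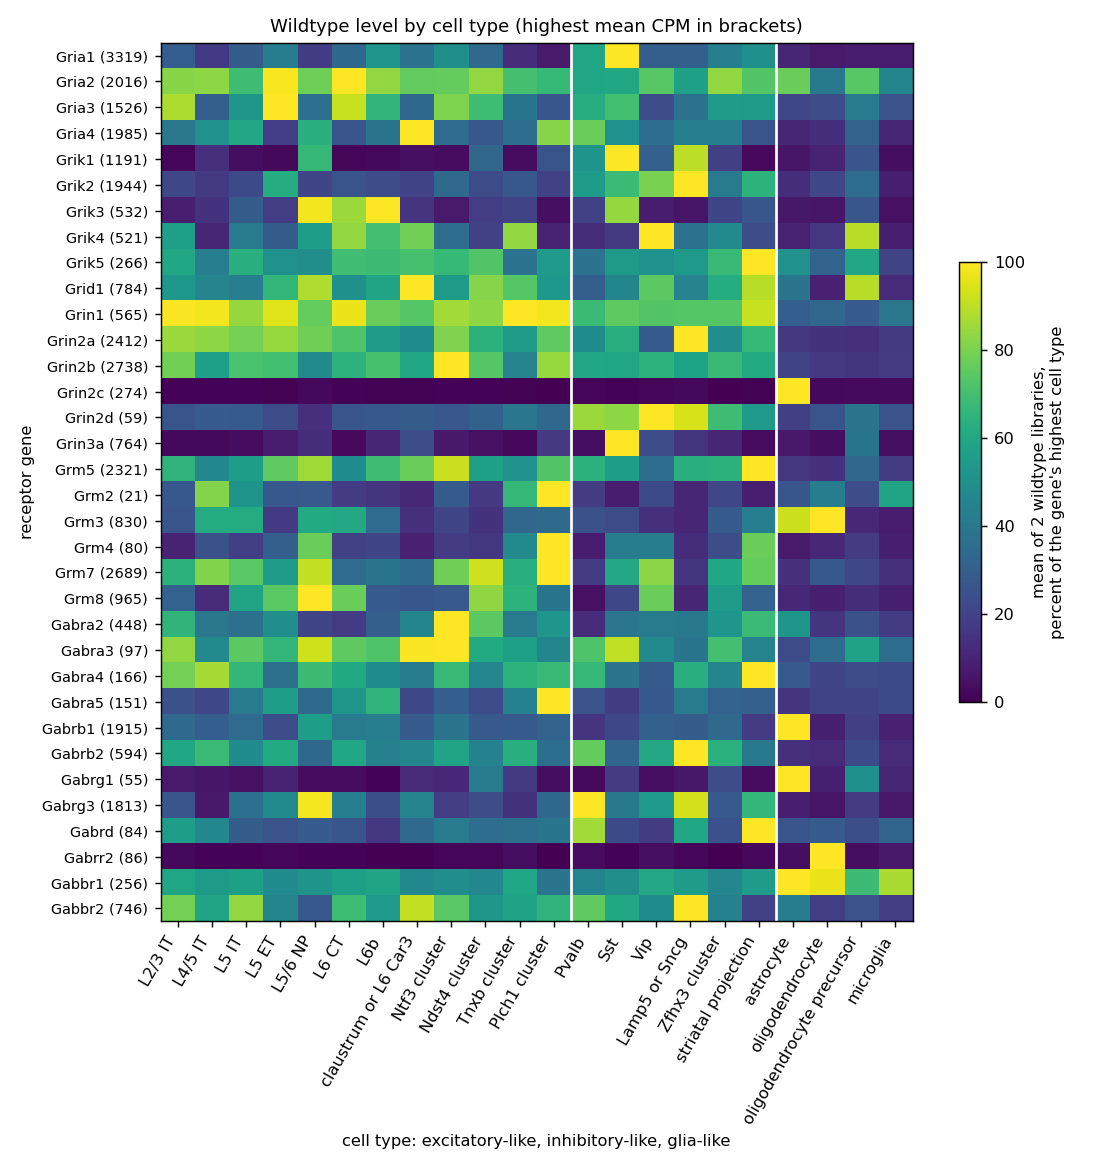
Rows are 34 receptor genes that reach a mean of 10 CPM in at least 1 cell type, columns the excitatory-like, inhibitory-like and glia-like cell types, and colour the mean of the 2 wildtype libraries as a percentage of the gene's own highest cell type, whose CPM stands in brackets. Grin2c and Gabrr2 are bright in a single column, Grik1 and Grin3a in few, and Grin1 and Gria2 over nearly all neuron columns.

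Between the pooled classes of wildtype neurons, Grik1 had the highest ratio among the members with over 10 CPM in both. It measured 86.6 and 85.6 CPM in excitatory-like and 857 and 814 CPM in inhibitory-like nuclei, a 9.71-fold ratio of the means. Grin3a followed at 8.01-fold, Grin2d at 3.10-fold, Grik2 at 2.65-fold and Gabrg3 at 2.39-fold higher in inhibitory-like nuclei. On the excitatory side the ratio was 0.376 for Grm8, 0.509 for Grm3, 0.583 for Grm7 and 0.608 for Grik4.

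In excitatory-like neurons of the knockout 1 receptor gene rose and 5 fell. The NMDA subunit gene Grin2d was higher by 0.85 on the log2 scale. The kainate subunit gene Grik1, the group III receptor genes Grm8 and Grm4 and the NMDA subunit gene Grin2a were among the lower ones, with log2 changes of -0.87 to -0.28. Counts were summed per library, so n = 2 animals per genotype, and tested with edgeR's quasi-likelihood test with Benjamini-Hochberg adjustment over all 19153 genes tested, at 0.05. Changes are log2 fold changes, knockout over wildtype, ± SE. Of the members 41 passed the filter on low counts and 35 of them did not pass the test. Over all genes tested 3.23% were called higher and 1.46% lower, against 1 and 5 of the 41 members.

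**Figure D2:**
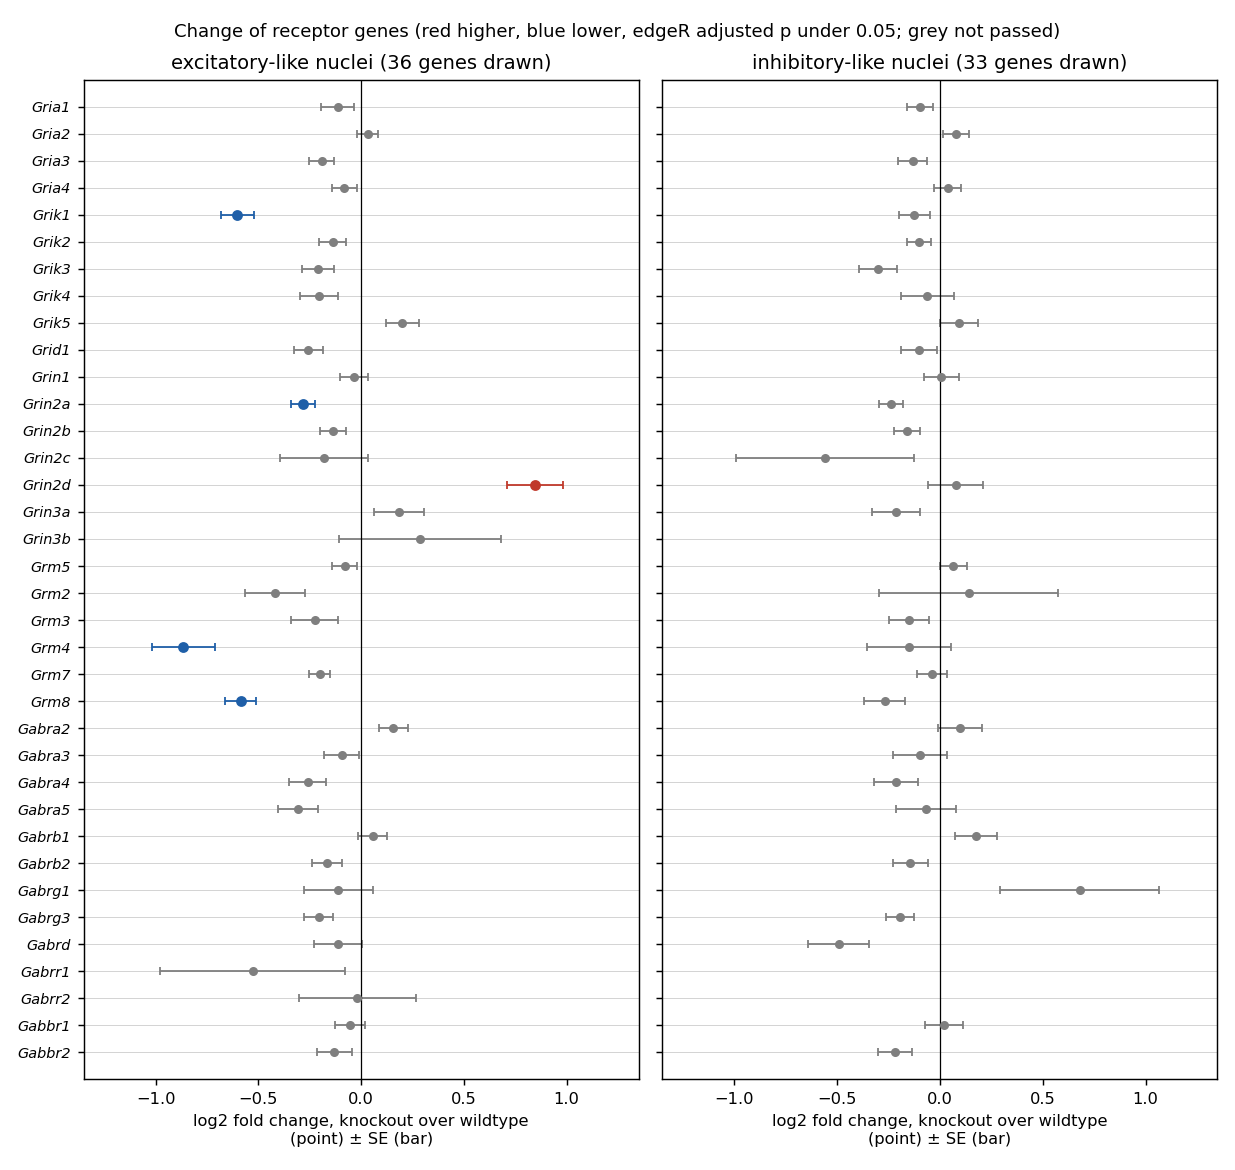
Points are log2 fold changes (knockout over wildtype, n = 2 libraries per genotype) of tested receptor genes with the standard error as bars, for excitatory-like nuclei on the left and inhibitory-like nuclei on the right. On the left Grin2d stands alone in red at 0.85, genes called lower are in blue, and 29 of the 36 genes drawn lie below 0.

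Grin2d encodes an NMDA subunit that is prominent in young brain and in adult interneurons. In excitatory-like nuclei it measured 15.3 and 17.3 CPM in the wildtype libraries and 33.7 and 26.1 CPM in the knockout libraries. The genotypes did not overlap, and knockout was the higher, at a change of 0.85 ± 0.14 (edgeR adjusted p = 0.0106). Its knockout level stayed below that of inhibitory-like nuclei, which measured 50.9 and 50.3 CPM in wildtype and 58.1 and 50.1 CPM in knockout. Grin2d spans 46.5 kb on the minus strand of chromosome 7 (chr7:45831883-45878378, GRCm38), where the genes Kdelr1 and Gm45441 overlap it on the other strand. Kdelr1 measured 16.1 and 16.9 CPM in wildtype and 16.7 and 17.7 CPM in knockout, and did not pass the test. Gm45441 measured 0.897 and 1.29 CPM in wildtype and 1.74 and 2.37 CPM in knockout (edgeR adjusted p = 0.123). Whether counting used strand is not given in the sources used here, so reads of Grin2d and these partners may not be told apart.

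Grm8 encodes a presynaptic group III receptor. It measured 514 and 476 CPM in wildtype and 345 and 328 CPM in knockout excitatory-like nuclei, with no overlap, at a change of -0.59 ± 0.076 (edgeR adjusted p = 0.00328). It lies on the minus strand at chr6:27275119-28135178 and spans 860 kb. Grm4, a second group III gene (chr17:27422387-27521403), measured 16.6 and 17 CPM in wildtype and 10.9 and 7.94 CPM in knockout, a change of -0.87 ± 0.15 (edgeR adjusted p = 0.0158). Grm7, the third member of this group with measurable RNA, was at 1756 and 1773 CPM in wildtype and 1568 and 1563 CPM in knockout. Its libraries did not overlap either, but its edgeR adjusted p was 0.0623.

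The 250 bases upstream of the annotated start are shown for Grin2d, the gene that rose, and Grm8, the gene called in the most subclasses, because these were the 2 of the 6 genes with an entry among RefSeq promoters (GRCm38.p6, 32 of 47 members matched). CG dinucleotides, the sites of DNA methylation in mammals, are in capitals. For Grm8 the outermost of 3 annotated starts is shown. The Grin2d window (chr7:45866682-45866931, minus strand) lies within the longer span given above and the Grm8 window at chr6:28135147-28135396, minus strand.
Grin2d: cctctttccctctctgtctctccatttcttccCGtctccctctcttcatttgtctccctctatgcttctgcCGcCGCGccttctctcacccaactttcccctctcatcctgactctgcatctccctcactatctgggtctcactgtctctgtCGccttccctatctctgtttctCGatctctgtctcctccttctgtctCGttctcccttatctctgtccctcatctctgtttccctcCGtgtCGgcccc
Grm8: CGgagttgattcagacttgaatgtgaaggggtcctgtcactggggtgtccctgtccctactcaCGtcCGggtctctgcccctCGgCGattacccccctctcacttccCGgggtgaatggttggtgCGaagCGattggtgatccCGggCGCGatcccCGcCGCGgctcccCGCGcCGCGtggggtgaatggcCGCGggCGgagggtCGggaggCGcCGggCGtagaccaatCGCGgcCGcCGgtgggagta
The Grin2d window holds 9 CG dinucleotides and the Grm8 window 29, against a median of 6 over 32851 windows of the same length. Of all windows 59.7% held fewer than the Grin2d window and 93.2% fewer than this Grm8 window. The other Grm8 starts had 8 and 2.

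Grik1, whose protein GluK1 forms kainate receptors best known from interneurons, measured 86.6 and 85.6 CPM in wildtype and 58.4 and 57.4 CPM in knockout excitatory-like nuclei. The change was -0.60 ± 0.079 (edgeR adjusted p = 0.00352) at chr16:87895900-88290265. Because Grik1 is abundant in interneurons, the RNA of those cells counted in excitatory-like nuclei was measured beside it. Gad1 in the same sums was 11.6 and 13.5 CPM in wildtype and 14.4 and 9.64 CPM in knockout, which overlap. The summed inhibitory class markers were 35.7 and 43.8 CPM against 41.6 and 35.9 CPM. Summed Lamp5 or Sncg markers were lower in knockout, at 110 and 113 CPM against 101 and 92.8 CPM. Sst markers (74.5 and 94.1 CPM against 99.6 and 100 CPM) and Vip markers (25.6 and 27.7 CPM against 30.2 and 30.0 CPM) were higher in knockout. Pvalb markers overlapped. The part of interneuron RNA in the Grik1 change was not tested. The Ndst4 cluster, where Grik1 is high, held 6.71% and 6.90% of wildtype and 8.11% and 3.67% of knockout excitatory-like nuclei. Within that cluster Grik1 did not pass the test. The Ntf3 cluster held 6.84% and 9.05% of wildtype and 10.2% and 13.7% of knockout nuclei. Without both clusters the same 6 members were called. L5/6 NP-like nuclei, where Grik1 is highest, made up 2.83% and 2.66% of wildtype and 2.63% and 2.37% of knockout excitatory-like nuclei. The part of the L5/6 NP share in the Grik1 change was not tested. Without wildtype replicate 2, 4 of the 6 remained, and Grin2a was not among them. DESeq2 did not call Grin2a either. With no filter on low counts Grm8 and Grik1 remained and the other 4 were not called. Without knockout replicate 1 the count was 10 and without knockout replicate 2 it was 9, each including these 6.

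The other kainate subunit genes did not pass. Grik2 was at -0.14 ± 0.067, Grik3 at -0.21 ± 0.077 and Grik4 at -0.20 ± 0.092, while Grik5 was at 0.20 ± 0.080. In all 5 kainate genes the libraries of the genotypes did not overlap. That was so for 25 of the 41 members in excitatory-like neurons, 19 lower and 6 higher in knockout, against 51.4% of all genes tested.

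Grin2a, the NMDA subunit gene that gains over Grin2b during cortical maturation, measured 1788 and 1913 CPM in wildtype and 1611 and 1495 CPM in knockout. The change was -0.28 ± 0.058 (edgeR adjusted p = 0.0303, chr16:9567898-9995560). Grin2b was at 1900 and 2039 CPM in wildtype and 1739 and 1913 CPM in knockout, which overlap. The ratio of Grin2a to Grin2b UMIs within a library was 0.941 and 0.938 in wildtype and 0.926 and 0.782 in knockout, so the knockout libraries lay below but knockout replicate 1 only slightly. Grin1 did not pass (-0.03 ± 0.066), with 511 and 522 CPM in wildtype and 513 and 515 CPM in knockout. Grin2c, Grin3a and Grin3b did not pass either, at -0.18, 0.18 and 0.29.

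Among GABA-A subunit genes, which set the pharmacology of the receptor by their combination, Gabrb2 was at -0.17 ± 0.072 (edgeR adjusted p = 0.227), with 336 and 325 CPM in wildtype and 301 and 299 CPM in knockout, which do not overlap. Of the alpha genes, Gabra4 was at -0.26 ± 0.092, Gabra5 at -0.31 ± 0.098 and Gabra3 at -0.09 ± 0.086, while Gabra2 was at 0.16 ± 0.072. Gabrb1 was at 0.06 and the GABA-B genes Gabbr1 and Gabbr2 were at -0.05 and -0.13. None of the genes in these sentences passed.

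No AMPA, delta, group I or group II gene passed in excitatory-like neurons. Gria3 came nearest among AMPA genes, with 1079 and 1052 CPM in wildtype and 977 and 925 CPM in knockout (-0.19 ± 0.060, edgeR adjusted p = 0.113). Gria2 was at 0.03 ± 0.051. Grid1 was at -0.26 ± 0.071 (edgeR adjusted p = 0.0808). Grm5 was at -0.08 ± 0.060 and Grm3 at -0.23 ± 0.115. The 6 members not tested in excitatory-like neurons were Gabrp, Gabra6, Grm6, Gabrr3, Gabre and Gabrq, each with few UMIs.

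Most members leaned the same way without passing. Of the 41 tested members 33 had a negative change and the median was -0.14, while 49.2% of all genes tested were negative at a median of 0.01. The members' median span was 138 kb, and long genes as a whole lay lower in knockout. Of the 594 genes over 300 kb that were tested 72.1% were negative and 10.6% were called lower, with a median of -0.11. The 17 members of that length had a median of -0.14, and 15 were negative. Of the 15 members under 100 kb 12 were negative at a median of -0.11, where the 16446 genes of that length had a median of 0.02.

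**Figure D3:**
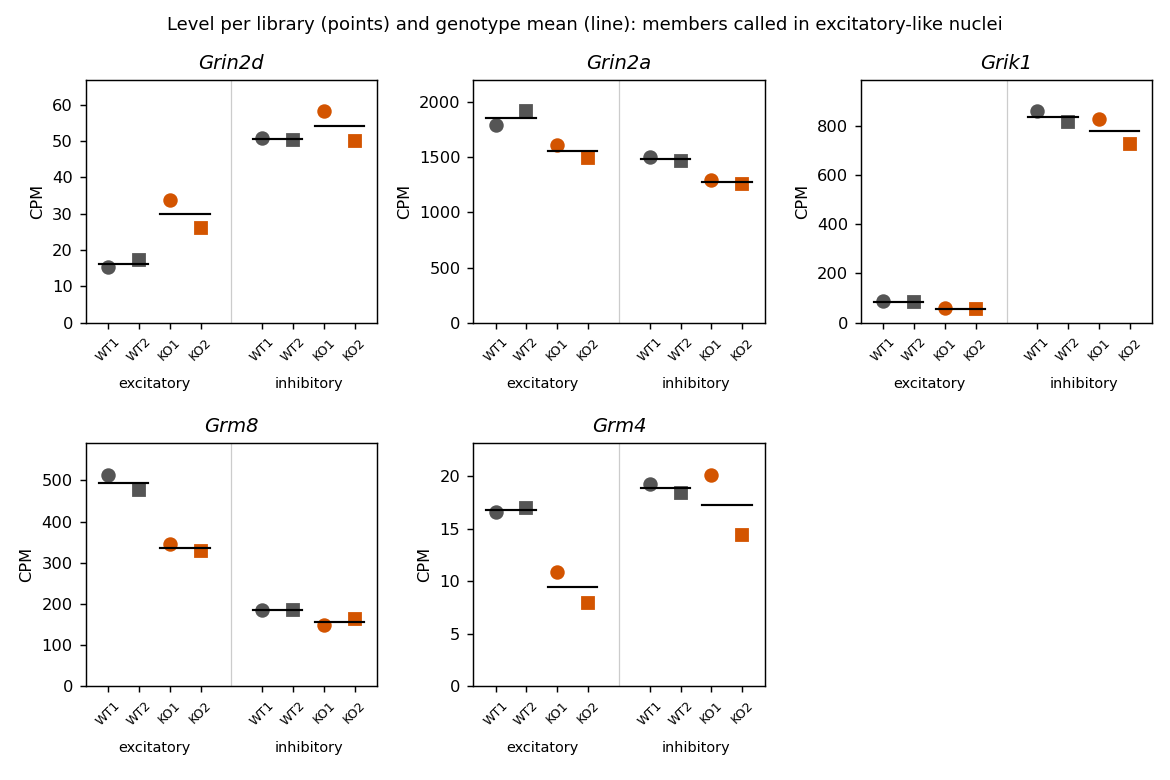
Each point is the CPM of 1 library (grey wildtype, orange knockout, circles replicate 1 and squares replicate 2), each line a genotype mean, for 5 of the 6 members called in excitatory-like nuclei, with the excitatory-like class left and the inhibitory-like class right of the grey line. Grin2d and Grik1 separate by genotype in the excitatory-like class and overlap in the inhibitory-like class.

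In inhibitory-like neurons no member passed among 38 tested, against 1.06% of all 14444 genes tested by edgeR. DESeq2 also called 0 members. An unadjusted edgeR p under 0.05 was found for 9 of the 38 members, against 1890 of the 14444 genes tested. With the replicate number as a block, which here equals a block on the sex read from Xist, 10 members were called, Grin2a, Grin2b, Grik3, Grm8, Gabrd and Gabrg3 among them. The share of all genes called with the block is not given here. Counts without 1 library ran from 0 to 5, with 5 without knockout replicate 1 and 3 without knockout replicate 2, so the 0 does not show that these genes were alike between genotypes. The smallest adjusted p belonged to Grin2a, at 1497 and 1468 CPM in wildtype and 1292 and 1255 CPM in knockout (-0.24 ± 0.058, edgeR adjusted p = 0.0688). Gabrd measured 46.0 and 43.7 CPM in wildtype and 32.1 and 32.4 CPM in knockout (-0.49 ± 0.15, edgeR adjusted p = 0.143). In both genes the libraries of the genotypes did not overlap, as in 24 of the 38 members, against 43.9% of all genes. Of the 38 members 25 were negative and the median was -0.10. Grm6 had 0 UMIs in all inhibitory-like libraries, which allows at most 0.19 CPM over the class.

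Of 40 members tested for it, Grik1 and Grin2d changed differently in the classes, by the genotype by class term of a fit over both (0.631% of all 18700 genes passed). The change of Grik1 in inhibitory-like neurons minus that in excitatory-like neurons was 0.44 ± 0.069 (edgeR adjusted p = 0.000916). In inhibitory-like nuclei Grik1 measured 857 and 814 CPM in wildtype and 828 and 727 CPM in knockout, which overlap (-0.13 ± 0.075). For Grin2d the difference was -0.80 ± 0.13 (edgeR adjusted p = 0.00133), and its change in inhibitory-like neurons was 0.08 ± 0.13. Grm8 (0.28 ± 0.081, edgeR adjusted p = 0.149), Grm4 (0.69 ± 0.19, edgeR adjusted p = 0.129) and Grin2a (0.01 ± 0.056) were not shown to differ between the classes. With the Ntf3 and Ndst4 clusters left out of the excitatory-like class, the Grik1 difference was 0.295 at edgeR adjusted p = 0.0557, and with DESeq2 the Grin2d difference had an adjusted p of 0.113.

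Over the 12 excitatory-like subclasses, 26 of 428 member and subclass pairs passed, 22 lower and 4 higher, and they belong to 12 members. Over all genes 0.697% of pairs were called lower and 1.29% higher. Grm8 accounts for 8 of the 22 lower pairs. DESeq2 called 11 pairs, and the count was 16 without wildtype replicate 1, 61 without knockout replicate 1 and 49 without knockout replicate 2. By subclass the share of all genes called lower was 0.737% in L2/3 IT, 0.891% in L4/5 IT, 1.46% in L5 IT, 0.388% in L5 ET, 0.418% in L5/6 NP, 0.933% in L6 CT, 1.05% in L6b, 0.77% in claustrum or L6 Car3, 0.344% in the Ntf3, 0.0811% in the Ndst4, 0.501% in the Tnxb and 0.525% in the Plch1 cluster. The number of members called there ran from 0 of 36 in the Ndst4 cluster to 5 of 38 in L5 IT-like neurons, where 2 were higher and 3 lower.

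Grm8 was negative in all 12 excitatory-like subclasses, by -1.15 to -0.30, and fell in 8. The changes were most negative in L6b-like neurons, at 314 and 237 CPM in wildtype and 135 and 118 CPM in knockout (-1.15 ± 0.18, edgeR adjusted p = 2.02e-06), and in L2/3 IT-like neurons, at 305 and 300 CPM against 150 and 141 CPM (-1.07 ± 0.093, edgeR adjusted p = 0.000146). The Ntf3 cluster measured 308 and 233 CPM against 153 and 117 CPM (-1.02 ± 0.16). Where Grm8 is most abundant the changes were smaller in size, with 978 and 951 CPM against 730 and 685 CPM in L5/6 NP-like neurons (-0.46 ± 0.11) and 747 and 752 CPM against 562 and 607 CPM in L6 CT-like neurons (-0.37 ± 0.082). Grm8 also fell in L4/5 IT-like, L5 IT-like and Tnxb cluster nuclei (-0.62, -0.38 and -0.56). It did not pass in L5 ET-like, claustrum or L6 Car3-like, Ndst4 cluster and Plch1 cluster nuclei. The calls in L2/3 IT-like and L6b-like neurons held in all 12 alternatives run. DESeq2 did not call Grm8 in L4/5 IT-like, L5/6 NP-like or Tnxb cluster nuclei, and the L5 IT call was lost with no low-count filter. Leaving out wildtype replicate 1 ended the call in the Ntf3 cluster, L5 IT, L6 CT, L5/6 NP and Tnxb cluster, wildtype replicate 2 in L4/5 IT, L5/6 NP and Tnxb cluster, knockout replicate 1 in L6 CT and L5/6 NP, and knockout replicate 2 in L4/5 IT and L5/6 NP. Differences of the change between subclasses were not tested.

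**Figure D4:**
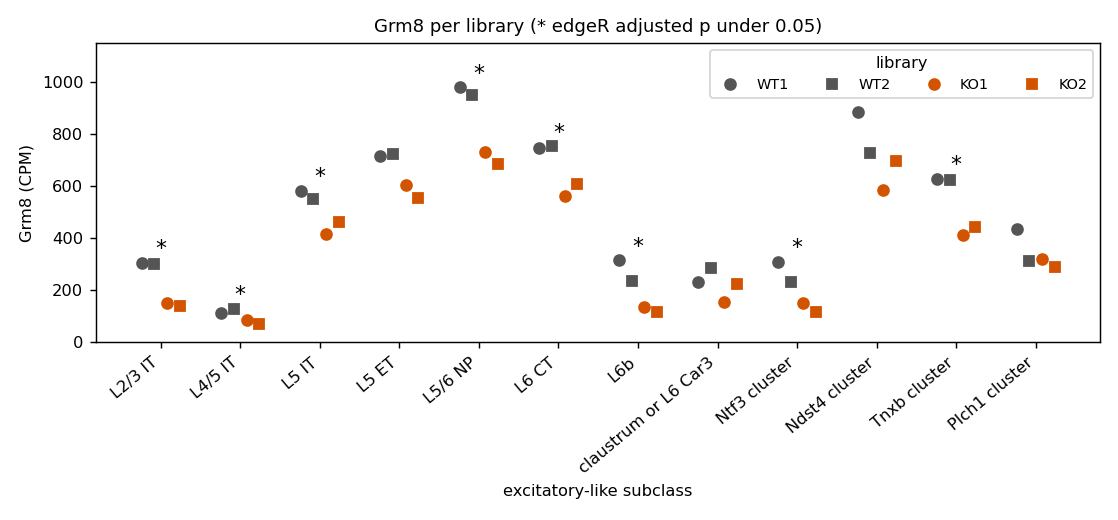
Points are Grm8 CPM per library in each excitatory-like subclass (grey wildtype, orange knockout, circles replicate 1 and squares replicate 2), and stars mark edgeR adjusted p under 0.05. In L2/3 IT-like, L6b-like and Ntf3 cluster nuclei the knockout libraries lie between 117 and 153 CPM and the wildtype libraries between 233 and 314 CPM.

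Grin2d was positive in all 11 excitatory-like subclasses where it was tested, by 0.31 to 1.05, and rose in 3. It measured 15.2 and 16.2 CPM in wildtype and 38.4 and 27.4 CPM in knockout L6 CT-like neurons (1.05 ± 0.20, edgeR adjusted p = 0.00766). In L5 IT-like neurons it was at 15.2 and 18.4 CPM against 36.4 and 31.3 CPM (0.98 ± 0.16, edgeR adjusted p = 0.00563), and in L2/3 IT-like neurons at 12.6 and 18.3 CPM against 33.6 and 26.5 CPM (0.94 ± 0.20, edgeR adjusted p = 0.0381). All genes called higher were 2.27% in L6 CT, 2.41% in L5 IT and 1.45% in L2/3 IT-like neurons. Grin3a, an NMDA subunit gene that lowers calcium entry, rose in L5 IT-like neurons, from 24 and 29.6 CPM to 38.9 and 51.0 CPM (0.72 ± 0.17, edgeR adjusted p = 0.0390). The Grin2d call in L6 CT-like neurons held in all 12 alternatives run, and that in L5 IT-like neurons was lost with no low-count filter. In L2/3 IT-like neurons it was lost with DESeq2, no low-count filter, clustering on the receptor genes too, and without wildtype replicate 1. The Grin3a call was lost in those same settings and also without knockout replicate 2.

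Grin2a was negative in all 12 and fell in 3 excitatory-like subclasses: L6b (-0.58 ± 0.12), L6 CT (-0.37 ± 0.071) and L5 ET (-0.30 ± 0.063). In L6b-like neurons it measured 1318 and 1319 CPM in wildtype and 1042 and 758 CPM in knockout. The ratio of Grin2a to Grin2b UMIs there was 0.687 and 0.673 in wildtype and 0.648 and 0.456 in knockout. In L6 CT-like neurons it was 0.989 and 0.982 against 0.896 and 0.729. It overlapped in L5 ET-like neurons, at 1.05 and 1.08 in wildtype and 1.09 and 0.922 in knockout, and also in L2/3 IT-like and L5 IT-like neurons. Gria3 fell in L6b-like neurons, from 1097 and 910 CPM to 734 and 705 CPM (-0.51 ± 0.12). With nuclei clustered on the receptor genes too, neither passed in L6b-like neurons, at -0.358 for Grin2a (edgeR adjusted p = 0.122) and -0.30 for Gria3 (edgeR adjusted p = 0.196). Without knockout replicate 2 Grin2a in L6b was at -0.40 (edgeR adjusted p = 0.0795), and without wildtype replicate 1 Gria3 was at -0.379 (edgeR adjusted p = 0.475). DESeq2 did not call Grin2a in L6 CT or L5 ET-like neurons, and the L5 ET call was lost without wildtype replicate 2.

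Grik1 was negative in 10 of the 12 excitatory-like subclasses and passed in 2 of them. It fell in the Plch1 cluster, from 297 and 319 CPM to 154 and 131 CPM (-1.09 ± 0.19, edgeR adjusted p = 0.000188), and in L5 IT-like neurons, from 43.3 and 43.1 CPM to 31.7 and 26.7 CPM (-0.59 ± 0.14, edgeR adjusted p = 0.0401). In L5/6 NP-like neurons, where it is highest, it measured 774 and 812 CPM in wildtype and 485 and 638 CPM in knockout and just missed the threshold (-0.51 ± 0.13, edgeR adjusted p = 0.0532). The Plch1 cluster call held in all 12 alternatives run. That in L5 IT-like neurons was lost with DESeq2, no low-count filter and clustering on the receptor genes too. It was also lost without wildtype replicate 1, wildtype replicate 2 or knockout replicate 2. Grik1 was positive without passing in the Tnxb cluster (0.66 ± 0.26) and in L5 ET-like neurons (0.33 ± 0.24).

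Other kainate and delta genes fell in single subclasses. In claustrum or L6 Car3-like neurons Grik4 went from 403 and 415 CPM to 249 and 205 CPM (-0.88 ± 0.16, edgeR adjusted p = 0.00423), and Grid1 from 766 and 801 CPM to 516 and 575 CPM (-0.56 ± 0.13, edgeR adjusted p = 0.0333). Grik3 fell in L4/5 IT-like neurons, from 82.5 and 71.8 CPM to 41.2 and 48.8 CPM (-0.80 ± 0.16, edgeR adjusted p = 0.00920). The Grik4 call held in all 12 alternatives run. DESeq2 did not call Grid1 or Grik3 there, and leaving out wildtype replicate 1 ended both calls, as did wildtype replicate 2 or knockout replicate 1 for Grid1.

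Among metabotropic genes Grm7 fell in L5 IT-like neurons (-0.23 ± 0.052) and the Plch1 cluster (-0.33 ± 0.089). Neither was called with DESeq2, with no low-count filter, without wildtype replicate 1 or without wildtype replicate 2. The Plch1 cluster call was lost in 8 of the 12 alternatives run. These include the replicate block, doublets kept, ribosomal and mitochondrial genes left out, and knockout replicate 2 left out. Gabra5, Gabrb2, Grin2b and Grid1 were negative in all 12 subclasses, and of these only Grid1 passed in any. Grm4 was negative in all 11 subclasses where it was tested and passed in none of them.

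**Figure D5:**
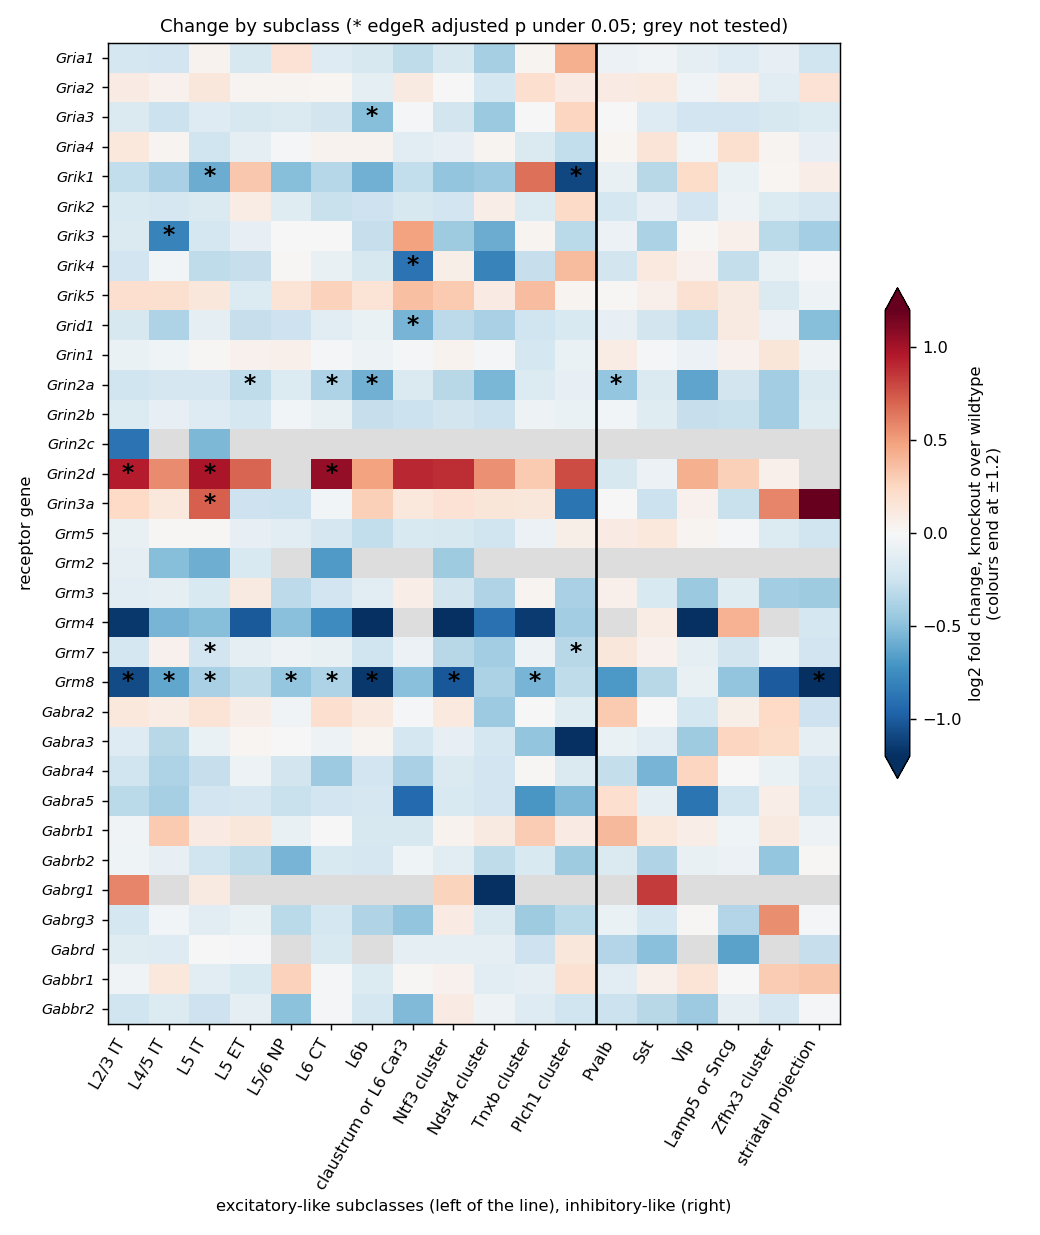
Colours are log2 fold changes (knockout over wildtype) of receptor genes in 12 excitatory-like and 6 inhibitory-like subclasses, stars mark edgeR adjusted p under 0.05, and grey cells were not tested. The Grm8 row is blue in every column with 9 stars, and the Grin2d row is red over the excitatory-like columns with 3 stars.

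In the 6 inhibitory-like subclasses 2 of 206 pairs passed, against 0.451% of pairs over all genes. Grin2a fell in Pvalb-like interneurons, from 1279 and 1057 CPM to 866 and 842 CPM (-0.46 ± 0.092, edgeR adjusted p = 0.00717), where 0.0829% of all genes were called lower. This call was lost with DESeq2 (adjusted p = 0.147), with the replicate block (edgeR adjusted p = 0.0718) and without wildtype replicate 1, where the change was -0.321 (edgeR adjusted p = 0.707). Grm8 fell in striatal projection-like nuclei, from 241 and 364 CPM to 78.1 and 145 CPM (-1.63 ± 0.27, edgeR adjusted p = 0.000201), where 0.437% of all genes were called lower. That subclass had only 51 to 126 nuclei per library, and the call was lost with DESeq2 (adjusted p = 0.0679) and without knockout replicate 1, at -1.09 (edgeR adjusted p = 0.0999). Grm8 was negative in all 6, and in Vip-like interneurons, where it is highest, it measured 814 and 686 CPM in wildtype and 683 and 728 CPM in knockout.

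Among glia-like nuclei, Grm8 and Gabrg3 fell in oligodendrocyte-like nuclei, where 0.471% of all genes were called lower. Grm8 measured 91.9 and 76.5 CPM in wildtype and 44.1 and 48.2 CPM in knockout (-0.85 ± 0.18, edgeR adjusted p = 0.0301), and Gabrg3 86.4 and 119 CPM against 65.5 and 51.5 CPM (-0.78 ± 0.18, edgeR adjusted p = 0.0495). RNA of neurons was counted in these nuclei: Slc17a7 measured 309 and 408 CPM in wildtype and 292 and 369 CPM in knockout, and Gad1 40.2 and 45 CPM against 40.8 and 27 CPM. The summed inhibitory class markers were 135 and 139 CPM against 125 and 84.2 CPM, with all 5 detected. The part of neuronal RNA in the 2 calls was not tested. No member passed in astrocyte-like, oligodendrocyte precursor-like or microglia-like nuclei, where 0.328%, 0.0219% and 0.0999% of all genes did. Astrocyte-like nuclei pool 2 clusters, of which 1 held 20 and 34 wildtype and 198 and 365 knockout nuclei.

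Partner genes of the receptors were read from lists of 95 genes, 93 of them tested in excitatory-like neurons. There 1 rose and 8 fell, against 3.23% higher and 1.46% lower of all genes tested. Of 20 AMPA receptor auxiliary genes Shisa6, Frrs1l and Nptx2 fell. Nptx2, a secreted pentraxin that gathers AMPA receptors, went from 11.6 and 12.2 CPM to 6.16 and 5.61 CPM (-1.05 ± 0.13, edgeR adjusted p = 0.00297). Frrs1l, which assists AMPA receptor assembly, was at -0.40 ± 0.085 and Shisa6, an AMPA receptor auxiliary protein, at -0.41 ± 0.087. The cerebellin genes Cbln2 and Cbln4, ligands of delta receptors, fell at low levels. Cbln2 measured 6.88 and 6.48 CPM in wildtype and 4.26 and 4.07 CPM in knockout, and Cbln4 4.09 and 2.61 CPM against 1.62 and 1.07 CPM.

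Among the postsynaptic scaffold genes Dlg2, which encodes PSD-93, fell in both classes, by 0.20 in excitatory-like and by 0.17 in inhibitory-like neurons, and the other 19 did not pass in excitatory-like neurons. Plcb4, the phospholipase downstream of group I receptors, went from 142 and 126 CPM to 105 and 97.2 CPM (-0.44 ± 0.089). Of 11 GABA receptor clustering genes and 8 genes of GABA handling and chloride transport none passed. The glycine receptor gene Glra3 rose, from 15.9 and 18.9 CPM to 25 and 26.4 CPM (0.54 ± 0.12, edgeR adjusted p = 0.0381). The glutamate transporter gene Slc1a2, an astrocyte gene for the most part, fell in both classes. Summed astrocyte markers in excitatory-like nuclei were 178 and 193 CPM in wildtype and 176 and 168 CPM in knockout, and in inhibitory-like nuclei 252 and 278 CPM against 207 and 215 CPM, and their part in the Slc1a2 values was not tested. In inhibitory-like neurons Dlgap2 and Homer1 fell too, and 4 of 92 partner genes were called lower in all, against 0.277% of all genes.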

How the data were processed

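Single-nucleus RNA was measured in 4 libraries, 2 per genotype. The deposited values are UMI counts per gene and barcode. Cell Ranger 7.1.0 and the build mm10 are named per the submitters' processing notes. Whether introns and strand were used is not given in the sources used here. Barcodes needed 500 UMIs and 300 genes, with mitochondrial UMIs up to 5%. Scrublet marked 2464 doublets, which were removed, and nuclei were clustered in scanpy 1.11.5 (Leiden, resolution 1) without receptor genes. Counts were summed per library and cell type (at least 30 nuclei per library) and tested in edgeR 4.0.16 (filterByExpr with a minimum count of 10, TMM, quasi-likelihood test, Benjamini-Hochberg over all genes). DESeq2 1.42.0 was an alternative. The test scripts were checked on simulated data. With 2 animals per genotype, p-values rest on the spread between those animals. Named are the members called in any class, subclass or difference, the subunits that define each receptor type, and called partner genes. Members near a threshold, others given by family, and genes overlapping a member were added after their values were seen. The values of some members are not reported here, though counts and medians include them. The members and lists were chosen with earlier results of these data known. Gene positions are from GENCODE vM21 (GRCm38).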

Additional observations from a re-analysis of the deposited data

Results flagged for a closer look

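The change of Grin2d in inhibitory-like neurons minus that in excitatory-like neurons was -0.795 on the log2 scale, which was flagged because the genotype by class term passed its test (edgeR adjusted p = 0.00133). Grin2d measured 15.3 and 17.3 CPM in wildtype and 33.7 and 26.1 CPM in knockout excitatory-like nuclei, and 50.9 and 50.3 CPM against 58.1 and 50.1 CPM in inhibitory-like nuclei.

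The same difference for Grik1 was 0.445 (edgeR adjusted p = 0.000916). Its level was 86.6 and 85.6 CPM in wildtype and 58.4 and 57.4 CPM in knockout excitatory-like nuclei, and overlapped between the genotypes in inhibitory-like nuclei.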

How the results depend on the processing

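Counts of receptor genes called moved with several settings, and the cause was not tested unless given. In excitatory-like neurons, where 6 were called, the count was 2 with no low-count filter, which tests more genes, and ran from 4 (without wildtype replicate 2) to 10 (without knockout replicate 1) with 1 library left out. In inhibitory-like neurons, where 0 were called, it was 1 with no low-count filter, 1 with doublets kept, and 0 to 5 with 1 library left out. Over the excitatory-like subclasses 26 pairs became 11 with DESeq2 and 16 to 61 with 1 library left out. Over the inhibitory-like subclasses 2 became 0 with DESeq2, 4 with no low-count filter and 1 to 9 with 1 library left out, and keeping doublets was not run there. The 2 differences between classes became 1 with DESeq2, 4 with no filter, 1 without the Ntf3 and Ndst4 clusters (chosen after seeing the data), and 2 to 7 with 1 library left out. With 1 library left out, a lone library is assumed to vary like the other genotype. No change of sign was found in the alternatives run for the called genes. Grm8 and Grik1 in excitatory-like neurons passed in all 13 alternatives run.

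With the replicate number as a block, 19 members were called in excitatory-like and 10 in inhibitory-like neurons, and 86 and 4 subclass pairs. Each of these fits leaves 1 residual degree of freedom, and the shares of all genes called with the block are not given here. For the difference between classes a replicate by class term beside the library terms, chosen after seeing the data, gave 6, the same 2 among them, with 1 residual degree of freedom. The labels give no litter, batch or day behind the numbers. Xist and Uty put a male as replicate 1 and a female as replicate 2 for either genotype, so the block equals a block on measured sex. Same-numbered deviations in excitatory-like nuclei correlated at 0.541 over 14884 genes and at 0.198 over 38 members, from 2 pairs.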
